A study of Bos taurus with 8 samples.

Results

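Transcripts of the eukaryotic translation initiation factors (symbols beginning EIF) and elongation factors (symbols beginning EEF) were followed in eight-cell cattle embryos, apart from EIF1AX, which was not analysed here. The symbol rule took 61 of the 21258 features in the deposited expression tables, and 59 of the 61 reached 1 FPKM in at least 2 of the 8 libraries and were tested. FPKM scales the fragments of a transcript to its length and to the size of the library, so it gives a share of the library and not an amount of RNA per embryo. EEFSEC, which brings selenocysteine to the ribosome, was listed at 0 in 5 libraries and stood at 0.14 FPKM in KDM4E-SCNT replicate 2 and at 0.28 and 0.47 FPKM in IVF replicates 1 and 3. EIF2AK2, the kinase activated by double-stranded RNA, stood at 0.19 and 0.93 FPKM in KDM4E-SCNT, 1.86, 0.31 and 0.24 FPKM in IVF and 0.29, 0.5 and 0.29 FPKM in SCNT. Both were set aside as too low to test.

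Each library was made from total RNA of a pool of 8 Holstein embryos at the eight-cell stage. The 2 KDM4E-SCNT libraries came from cloned embryos, made by somatic cell nuclear transfer, with overexpression of KDM4E, a histone demethylase. The 3 IVF libraries came from embryos fertilised in vitro. The 3 SCNT libraries came from cloned embryos without that overexpression and are the control that the study names for both other groups. The means of KDM4E overexpression, the donor cells and the hour of collection are not given in the sources used here. Nothing in the labels says that the pools within a group were independent batches of embryos, so p-values reflect the variation among these 8 libraries alone, and that variation could be technical.

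To start a protein, the small ribosomal subunit takes up EIF1, EIF3 and EIF5 and the initiator tRNA carried by EIF2, is brought to the capped end of an mRNA by EIF4E, EIF4G and the helicase EIF4A, and scans to a start codon. EIF2B recharges EIF2 with GTP after each round, and the EIF2AK kinases slow this step by phosphorylating EIF2. Elongation is then run by EEF1A, which delivers aminoacyl-tRNA, by the EEF1B complex, which recharges EEF1A, and by EEF2, which moves the ribosome along. Oocytes store maternal mRNA under control of the cap and the poly(A) tail, and they carry their own form of the cap-binding protein, EIF4E1B, together with the EIF4E-binding repressor EIF4ENIF1. The eight-cell stage is when transcription from the embryonic genome of cattle increases strongly.

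The features with at least 1 FPKM numbered 10975 to 13050 per library, and the 10 most abundant features held 15.8% to 25.7% of all FPKM. The files give no read counts, so depth is unknown and no counting interval is given. KDM4E was checked through LOC524768, which the files describe as similar to KDM4C and whose identity with KDM4E is uncertain. Its FPKM was 102 and 206 in KDM4E-SCNT, 109, 88.3 and 109 in IVF, and 25.4, 29.9 and 33.9 in SCNT. Transcripts of 10 oocyte and early embryo markers were present in every group, with summed FPKM of 17274 and 20411 in KDM4E-SCNT, 26574, 29040 and 22066 in IVF and 3622, 8202 and 5545 in SCNT. Most of every sum was BTG4, at 16017 and 18165 in KDM4E-SCNT, 22629, 26548 and 18516 in IVF and 3269, 7818 and 5207 in SCNT. Of these 10 markers, 9 were called higher in KDM4E-SCNT than in SCNT and 10 in IVF than in SCNT (limma). The shares of all features called higher were 21.6% and 34.9%. Summed FPKM of 14 fibroblast markers was 85.3 and 374 in KDM4E-SCNT, 48.1, 30.4 and 24.2 in IVF and 113, 171 and 101 in SCNT. KDM4E-SCNT replicate 2 therefore stood apart in fibroblast transcripts, and results that rest on it are also given without it. Over 8 cumulus and granulosa markers the sums were 44.8 and 96.1 FPKM in KDM4E-SCNT, 161, 104 and 99.5 FPKM in IVF and 10.3, 21.8 and 13.1 FPKM in SCNT, mostly from HAS2 and STAR. Over 7 blood markers they were 52.6 and 80.7 FPKM in KDM4E-SCNT, 22.9, 16.9 and 26.4 FPKM in IVF and 143, 106 and 72.8 FPKM in SCNT. In KDM4E-SCNT and SCNT most of this came from HBA and HBA1, which had nearly the same values. The blood markers did not move together, with 3 called higher and 2 lower in IVF than in SCNT (limma). Among the fibroblast markers, PDGFRB was at 0 in every KDM4E-SCNT library, COL6A1 in every IVF library and THY1 in every SCNT library. Mitochondrially encoded transcripts held 11.0% and 11.5% of FPKM in KDM4E-SCNT, 6.08%, 6.58% and 7.11% in IVF and 7.54%, 10.6% and 8.41% in SCNT. The part of maternal, fibroblast, cumulus, blood and mitochondrial RNA in the differences below was not tested. In these bulk pools, fewer cells of a type and less RNA per cell cannot be told apart.

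Together the 61 genes held 8401 and 8424 FPKM in KDM4E-SCNT, 6462, 7262 and 7167 FPKM in IVF and 12883, 9892 and 11429 FPKM in SCNT. These sums were 1.04% and 1.12% of all FPKM in KDM4E-SCNT, 0.870%, 1.03% and 0.975% in IVF and 1.53%, 1.17% and 1.41% in SCNT. The SCNT libraries were the 3 highest in both measures, with no overlap with the other groups. The median over the 59 genes was 39.5 and 42.2 FPKM in KDM4E-SCNT, 31.0, 24.7 and 33.4 FPKM in IVF and 112, 77.5 and 105 FPKM in SCNT. Over all 14839 features tested the order was the other way, with medians of 4.96 and 5.50 FPKM in KDM4E-SCNT, 5.11, 4.65 and 5.01 FPKM in IVF and 3.58, 3.85 and 3.66 FPKM in SCNT.

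Differences were tested with limma on log2(FPKM + 1) over all 14839 features and called at a Benjamini-Hochberg adjusted p under 0.05. All differences below are on that scale with the standard error of the fit, and the added 1 makes the change of low genes look smaller than it is. In IVF against SCNT, 10 factors were called higher and 33 lower, and 16 were not called. Over all features, 34.9% were called higher and 23.6% lower. The median difference was -1.09 over the 59 factors and 0.39 over all features. In KDM4E-SCNT against SCNT, 6 were called higher and 21 lower, where 21.6% of all features were called higher and 11% lower. The median difference was -0.59 over the factors and 0.33 over all features. In KDM4E-SCNT against IVF, 7 were called higher and 0 lower by limma, where 5.9% of all features were called higher and 0.62% lower. In either direction, 6.52% of all features were called there. At an unadjusted p under 0.05 the counts in that comparison were 20 higher and 0 lower. Shares of all features at the unadjusted threshold were not computed, so these counts have no background to be read against.

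Libraries of the compared groups did not overlap for 43 factors between KDM4E-SCNT and SCNT, for 46 between IVF and SCNT and for 28 between KDM4E-SCNT and IVF. The shares of all features with no overlap were 59.5%, 64.4% and 33.9% in the same order of comparisons. The KDM4E-SCNT mean on the log scale lay between the other group means for 46 of the 59 factors (78%), against 67.8% of all features. SCNT was the highest of the groups for 36 of these 46 and IVF for 10. Of the 10054 such features among all tested, SCNT was the highest for 4134 and IVF for 5920.

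The split of calls moved with the scaling. Median-ratio scaling moved the median difference of all features by -0.31 in KDM4E-SCNT against SCNT and by -0.29 in IVF against SCNT. Under it, 4 factors were higher and 30 lower in KDM4E-SCNT against SCNT, and 7 were higher and 39 lower in IVF against SCNT. Among all features called, 66.2% were higher in KDM4E-SCNT than in SCNT as deposited and 43.2% under median-ratio scaling, and 59.7% and 48.9% were higher in IVF. No factor changed the sign of a called difference under any scaling tried. Many calls in KDM4E-SCNT against SCNT ended when 1 library, KDM4E-SCNT replicate 2, was left out, though most differences kept much of their size. The called differences that shrank most without it were those of EEF1D (-1.17 to -0.68), EIF2B5 (-1.67 to -1.03), EIF5 (-1.33 to -0.82) and EIF6 (-1.72 to -0.98). That of EIF3D was -1.39 with both libraries and -1.40 without replicate 2. Without KDM4E-SCNT replicate 2, with the remaining library assumed to vary like those of the other groups, 3 of the 27 calls were kept, those of EIF4E1B, EEF2 and EIF4B. Without KDM4E-SCNT replicate 1, 23 were kept.

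**Figure D1:**
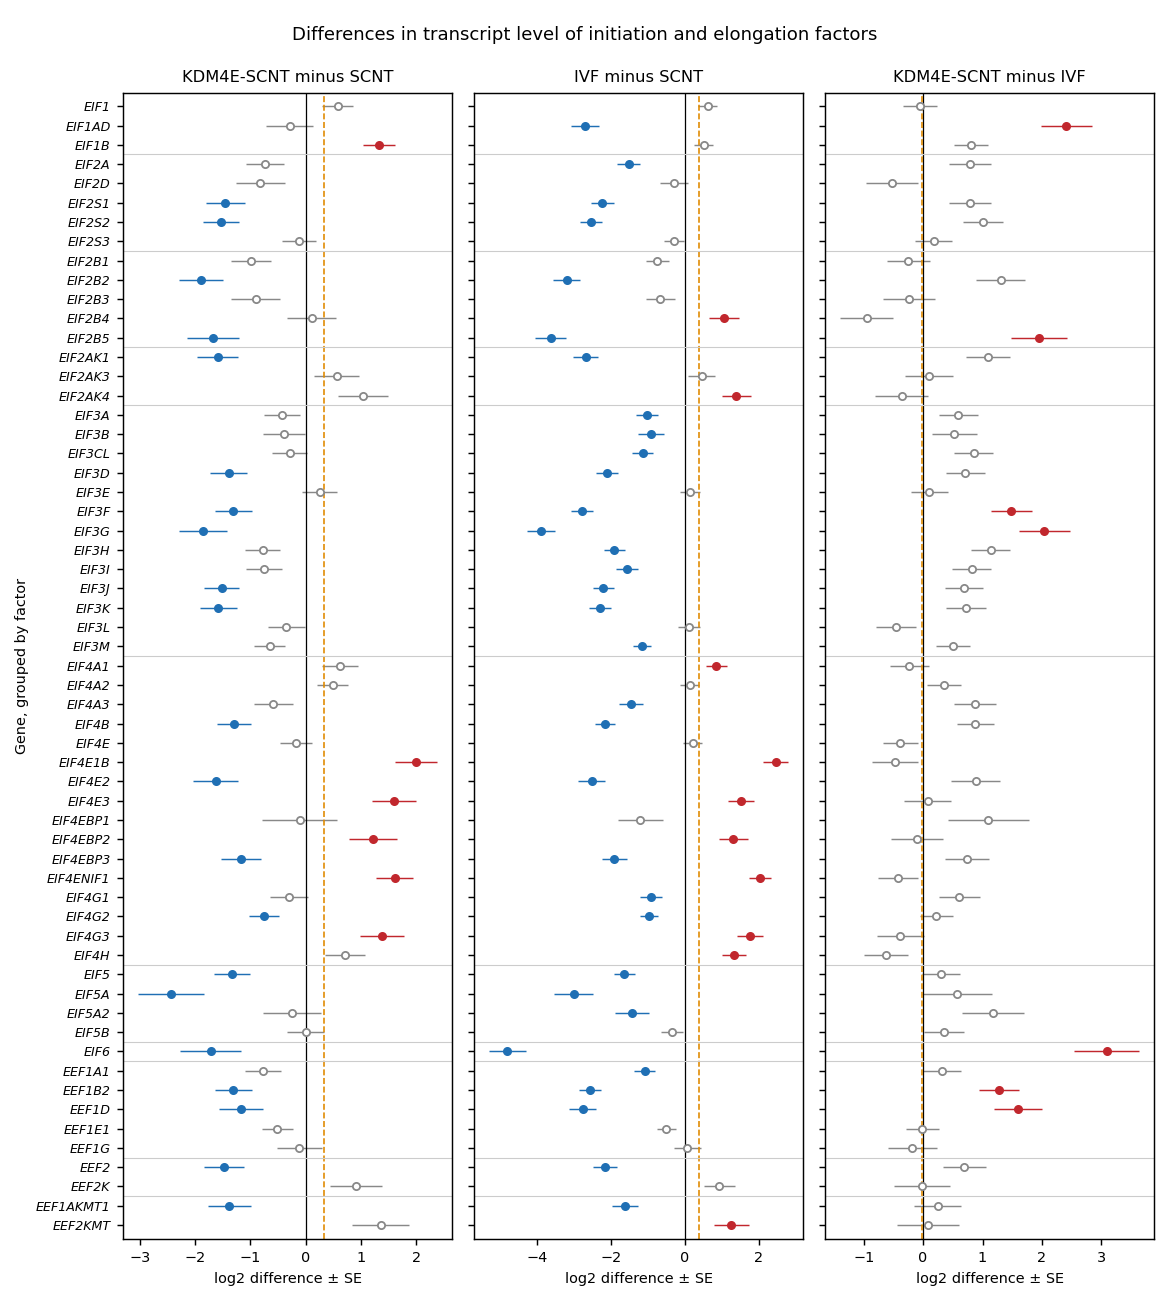
Log2 differences of the 59 tested factors (points) with standard errors (bars), in KDM4E-SCNT minus SCNT, IVF minus SCNT and KDM4E-SCNT minus IVF, from limma on log2(FPKM + 1); red marks higher and blue lower calls at adjusted p under 0.05, open points were not called, and the dashed line is the median of all features tested. In IVF minus SCNT most EIF3, EIF2 and EIF5 genes lie left of 0, and the genes called higher are mainly in the EIF4 group.

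The 3 cap-binding relatives of EIF4E that were called went in both directions. EIF4E1B (ENSBTAG00000003103.5, chromosome 7, 39467952 to 39470752, build UMD3.1), the oocyte form, stood at 61.6 and 78.7 FPKM in KDM4E-SCNT, 79.8, 74.2 and 152 FPKM in IVF and 11.8, 17.4 and 22.4 FPKM in SCNT. All KDM4E-SCNT and IVF libraries lay above all SCNT libraries. Its level was higher in KDM4E-SCNT (2.00 ± 0.39, adjusted p = 0.00297) and in IVF (2.46 ± 0.35, adjusted p = 7.53e-05), both against SCNT (limma). Between KDM4E-SCNT and IVF the libraries overlapped, with a difference of -0.47 ± 0.39 that was not called. Its call in KDM4E-SCNT against SCNT held when either KDM4E-SCNT library was left out.

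EIF4E itself (ENSBTAG00000009522.5, chromosome 6, 27042237 to 27080766), the general cap-binding protein, stood at 599 and 685 FPKM in KDM4E-SCNT, 760.3, 1149 and 665 FPKM in IVF and 689.9, 826 and 659 FPKM in SCNT. The groups overlapped, and no comparison called it. EIF4E1B made up 9.33% and 10.3% of the summed FPKM of EIF4E and EIF4E1B in KDM4E-SCNT, 9.50%, 6.07% and 18.6% in IVF and 1.69%, 2.07% and 3.29% in SCNT. EIF4E2, a cap-binding relative that represses translation and does not bind EIF4G well, stood at 37.7 and 35 FPKM in KDM4E-SCNT, 11.3, 24.7 and 25 FPKM in IVF and 168, 78.8 and 114 FPKM in SCNT. Every SCNT library was above every other library. EIF4E2 was lower in KDM4E-SCNT (-1.63 ± 0.41, adjusted p = 0.0102) and in IVF (-2.52 ± 0.37, adjusted p = 9.84e-05). EIF4E3, a low-abundance relative, stood at 2.1 and 2.65 FPKM in KDM4E-SCNT, 1.3, 3.18 and 2.39 FPKM in IVF and 0.19, 0.15 and 0 FPKM in SCNT. It was listed at 0 in 1 SCNT library and near 0 in the others, and no fold is given. The call was higher in KDM4E-SCNT (adjusted p = 0.01) and in IVF (adjusted p = 0.00283). With every SCNT library under 1 FPKM, EIF4E3 passed the filter only through the groups where it was high, so the filter and the direction of these calls are linked. The EIF4E2 and EIF4E3 calls in KDM4E-SCNT ended without KDM4E-SCNT replicate 2, at adjusted p of 0.0592 to 0.12 over the EIF4 genes affected.

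EIF4ENIF1, which binds EIF4E and holds oocyte mRNA in a repressed state, stood at 24 and 42.2 FPKM in KDM4E-SCNT, 38.6, 44.4 and 47.3 FPKM in IVF and 9.15, 11.2 and 9.14 FPKM in SCNT. The SCNT libraries were the lowest, with no overlap. EIF4ENIF1 was higher in KDM4E-SCNT (1.61 ± 0.34, adjusted p = 0.00443) and in IVF (2.04 ± 0.30, adjusted p = 0.000112). The EIF4E-binding proteins, which compete with EIF4G for EIF4E, did not move as a group. The feature named EIF4EBP3 spans 112909 bp and holds 8 transcripts. Those named EIF4EBP1 and EIF4EBP2 span 21842 and 21244 bp and hold 1 transcript each. Which transcripts the FPKM of EIF4EBP3 reflects is therefore uncertain. EIF4EBP2 was higher in both KDM4E-SCNT (1.22 ± 0.44, adjusted p = 0.0496) and IVF (1.32 ± 0.39, adjusted p = 0.0119) than in SCNT, while EIF4EBP3 was lower in both (-1.17 ± 0.37, adjusted p = 0.0277 in KDM4E-SCNT and -1.91 ± 0.33, adjusted p = 0.000327 in IVF). EIF4EBP1 stood at 5.77 and 5.96 FPKM in KDM4E-SCNT, 1.11, 1.33 and 5.68 FPKM in IVF and 21, 3.27 and 3.32 FPKM in SCNT, with 1 SCNT library far above the others of its group, and was not called. The calls of EIF4EBP2 and EIF4EBP3 in KDM4E-SCNT ended when either KDM4E-SCNT library, or SCNT replicate 1 or 3, was left out (adjusted p of up to 0.196 for EIF4EBP2 and 0.0975 for EIF4EBP3). That of EIF4EBP2 also ended without IVF replicate 3 (0.0673) or SCNT replicate 2 (0.0853). It ended as well under quantile, median-ratio and upper-quartile scaling (adjusted p of 0.0999 to 0.196). Other settings that ended it were no filter (0.0814), a pseudocount of 0.1 (0.0511), a replicate block (0.0635) and moderation without the robust option (0.0517). The EIF4EBP3 call ended with a replicate block (0.0648). The EIF4EBP2 call in IVF ended without IVF replicate 1 (adjusted p = 0.0539), and the EIF4ENIF1 call in KDM4E-SCNT without KDM4E-SCNT replicate 2.

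The EIF4G scaffolds, which bridge the cap-binding protein and EIF3, also diverged. EIF4G1 stood at 5.43 and 5.88 FPKM in KDM4E-SCNT, 3.76, 2.91 and 3.44 FPKM in IVF and 7.73, 7.56 and 6.44 FPKM in SCNT. EIF4G2, which lacks the part that binds EIF4E, stood at 172 and 186 FPKM in KDM4E-SCNT, 156, 129.6 and 177 FPKM in IVF and 311, 273 and 329 FPKM in SCNT. EIF4G3 stood at 5.09 and 3.54 FPKM in KDM4E-SCNT, 5.23, 6.87 and 5.55 FPKM in IVF and 1.04, 1.76 and 0.45 FPKM in SCNT. SCNT libraries were the highest of all libraries for EIF4G1 and EIF4G2 and the lowest for EIF4G3. In IVF against SCNT, EIF4G1 was lower (-0.92 ± 0.31, adjusted p = 0.0213), EIF4G2 was lower (-0.98 ± 0.24, adjusted p = 0.00418) and EIF4G3 was higher (1.77 ± 0.35, adjusted p = 0.00101). EIF4G2 was also lower (-0.76 ± 0.27, adjusted p = 0.0492) and EIF4G3 higher (1.38 ± 0.40, adjusted p = 0.0189) in KDM4E-SCNT than in SCNT, and both calls ended when either KDM4E-SCNT library was left out. The EIF4G3 call also ended without SCNT replicate 3 (adjusted p = 0.073), and that of EIF4G2 without any 1 SCNT library or IVF replicate 1 or 3 (adjusted p of 0.0583 to 0.14). Quantile normalization ended both KDM4E-SCNT calls (adjusted p = 0.283 for EIF4G2 and 0.0907 for EIF4G3). Median-ratio scaling ended that of EIF4G3 (0.0563), and 1 total per library that of EIF4G2 (0.082). Under quantile normalization EIF4G2 was not called in IVF against SCNT (adjusted p = 0.0851). EIF4G1 was not called without SCNT replicate 1 or 2, nor with 1 FPKM total set for every library (adjusted p = 0.053).

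Among the RNA helicases, EIF4A1 stood at 652 and 776 FPKM in KDM4E-SCNT, 951, 655 and 944 FPKM in IVF and 648, 312 and 486 FPKM in SCNT, and EIF4A2 at 584 and 620.4 FPKM in KDM4E-SCNT, 359.9, 643 and 453 FPKM in IVF and 427, 433 and 429 FPKM in SCNT. Both were abundant in every library, and EIF4A2 was not called: its IVF libraries overlapped with those of both other groups, while both KDM4E-SCNT libraries lay above all SCNT libraries. EIF4A1 was higher in IVF relative to SCNT (0.86 ± 0.29, adjusted p = 0.0235), a call that ended under median-ratio scaling (adjusted p = 0.244) and without any 1 of 4 libraries (IVF replicates 1 and 3, SCNT replicates 2 and 3). EIF4A3, a core part of the exon junction complex, was lower in IVF (-1.46 ± 0.32, adjusted p = 0.00171). EIF4B and EIF4H are cofactors that stimulate the helicase. EIF4B stood at 31.9 and 33.1 FPKM in KDM4E-SCNT, 13.5, 20.6 and 18.4 FPKM in IVF and 83.4, 82.6 and 77.2 FPKM in SCNT. Its groups did not overlap in any comparison, and it was lower in KDM4E-SCNT (-1.29 ± 0.31, adjusted p = 0.00793) and in IVF (-2.17 ± 0.27, adjusted p = 3.52e-05), against SCNT. EIF4H stood at 26.9 and 42.1 FPKM in KDM4E-SCNT, 55.9, 54.4 and 47.2 FPKM in IVF and 27.7, 22.9 and 12.9 FPKM in SCNT, and was higher in IVF relative to SCNT (1.33 ± 0.33, adjusted p = 0.00403).

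Of the 16 EIF4 genes, 7 were called higher and 6 lower in IVF against SCNT, and 5 higher and 4 lower in KDM4E-SCNT against SCNT. Shares of all features called higher and lower were 34.9% and 23.6% in the first comparison and 21.6% and 11% in the second. Summed over the 16, EIF4 transcripts stood at 2414 and 2720.1 FPKM in KDM4E-SCNT, 2576, 2887 and 2681 FPKM in IVF and 2831, 2286 and 2465 FPKM in SCNT, and the groups overlapped.

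**Figure D2:**
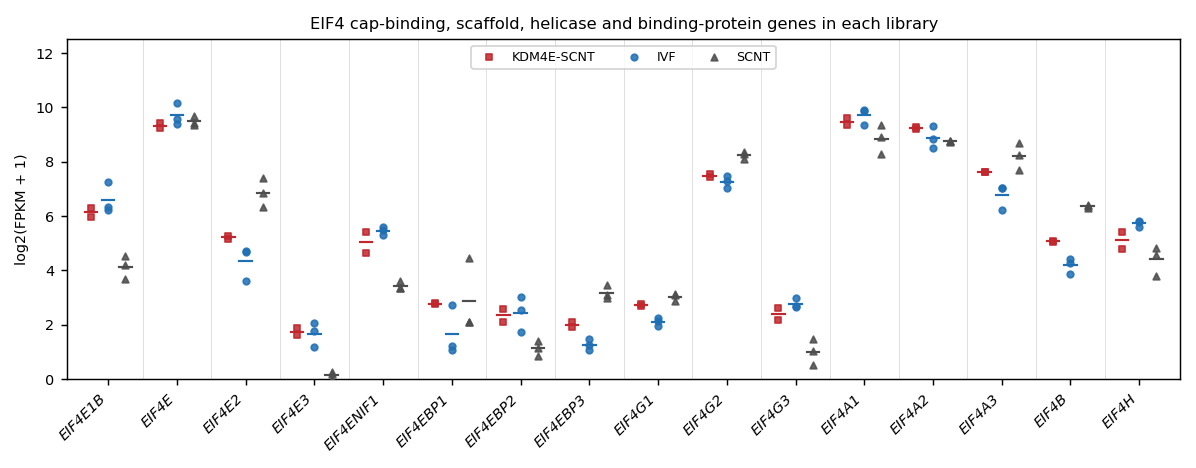
log2(FPKM + 1) of the 16 EIF4 genes in every library, with KDM4E-SCNT as red squares, IVF as blue circles and SCNT as grey triangles, and a short line at each group mean. EIF4E1B, EIF4E3, EIF4ENIF1 and EIF4G3 have the SCNT libraries lowest, EIF4E2, EIF4B and EIF4G2 have them highest, and EIF4E lies near 9 to 10 in every group.

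EIF3 is the largest initiation factor, a scaffold that binds the small ribosomal subunit and recruits the others. Of its 13 subunit genes, 11 were called lower and 0 higher in IVF than in SCNT, and EIF3E and EIF3L were not called. In KDM4E-SCNT against SCNT, 5 were called lower (EIF3D, EIF3F, EIF3G, EIF3J and EIF3K) and 0 higher, and 8 were not called. Of all features, 23.6% were called lower in IVF and 11% in KDM4E-SCNT, both against SCNT. At an unadjusted p under 0.05 no EIF3 gene was higher in either comparison. The summed level was 1848 and 1797 FPKM in KDM4E-SCNT, 1151, 1689.9 and 1450.0 FPKM in IVF and 3013, 2234 and 2909 FPKM in SCNT, with the SCNT libraries above all others.

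EIF3G (ENSBTAG00000002734.4, chromosome 7, 15897380 to 15902004), a subunit near the mRNA entry side that takes part in scanning, stood at 39.5 and 28 FPKM in KDM4E-SCNT, 6.46, 6.33 and 9.55 FPKM in IVF and 207, 66.7 and 135 FPKM in SCNT. The groups did not overlap, and the KDM4E-SCNT libraries lay between the IVF and SCNT libraries. EIF3G was lower in IVF (-3.90 ± 0.39, adjusted p = 6.73e-06) and in KDM4E-SCNT (-1.86 ± 0.43, adjusted p = 0.00749), both against SCNT, and higher in KDM4E-SCNT than in IVF (2.04 ± 0.43, adjusted p = 0.0125). EIF3F stood at 21.8 and 18.6 FPKM in KDM4E-SCNT, 6.83, 7.43 and 5.53 FPKM in IVF and 68.8, 40.2 and 49.2 FPKM in SCNT, and was likewise ordered with IVF lowest and SCNT highest. EIF3F was lower in IVF (-2.80 ± 0.30, adjusted p = 1.23e-05) and in KDM4E-SCNT (-1.31 ± 0.34, adjusted p = 0.012), against SCNT, and higher in KDM4E-SCNT than in IVF (1.49 ± 0.34, adjusted p = 0.0191).

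EIF3J, a loosely bound subunit, stood at 51.1 and 35 FPKM in KDM4E-SCNT, 25.9, 21.2 and 31.7 FPKM in IVF and 139, 103 and 131 FPKM in SCNT. EIF3K stood at 99.2 and 62.8 FPKM in KDM4E-SCNT, 64.2, 34.1 and 48.4 FPKM in IVF and 268, 225 and 226 FPKM in SCNT. For both, every SCNT library was above every other library, and EIF3K overlapped between KDM4E-SCNT and IVF. EIF3J was lower in KDM4E-SCNT (-1.52 ± 0.32, adjusted p = 0.0046) and in IVF (-2.21 ± 0.29, adjusted p = 4.46e-05). EIF3K was lower in KDM4E-SCNT (-1.58 ± 0.34, adjusted p = 0.00479) and in IVF (-2.31 ± 0.30, adjusted p = 4.5e-05). All 5 calls in KDM4E-SCNT against SCNT ended without KDM4E-SCNT replicate 2, with adjusted p of 0.0538 to 0.0898, and that of EIF3F also without SCNT replicate 1 (0.0514).

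EIF3E stood at 572 and 639.5 FPKM in KDM4E-SCNT, 393, 825 and 547 FPKM in IVF and 536, 469 and 520.2 FPKM in SCNT. IVF libraries overlapped with both other groups, while both KDM4E-SCNT libraries lay above the SCNT libraries, and the difference of IVF from SCNT was 0.15 ± 0.28. EIF3L stood at 118 and 182 FPKM in KDM4E-SCNT, 174, 185 and 258 FPKM in IVF and 225, 135 and 218 FPKM in SCNT, also with overlap, and IVF differed from SCNT by 0.11 ± 0.30. EIF3CL, annotated as a near-identical copy of the subunit EIF3C, which was not analysed here, stood at 19.2 and 19.9 FPKM in KDM4E-SCNT, 8.92, 12.1 and 10.4 FPKM in IVF and 20.3, 27.5 and 25.2 FPKM in SCNT. IVF libraries were the lowest for EIF3CL, which was called lower against SCNT (-1.14 ± 0.29, adjusted p = 0.0045). Reads of EIF3C and EIF3CL could be split between copies, so this level is uncertain. The 6 other called subunits had differences in IVF of -0.92 (EIF3B) to -2.11 (EIF3D). The EIF3B call, at adjusted p = 0.0358, ended without IVF replicate 1 or 3 or SCNT replicate 1 or 3, and that of EIF3M ended under quantile normalization (adjusted p = 0.112).

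Because EIF3 subunits assemble into 1 complex, the spread between their transcripts is also of interest. The highest subunit was 32.4 and 34.3 times the lowest in KDM4E-SCNT, 60.8, 130 and 98.9 times in IVF and 31.3, 21.0 and 29.0 times in SCNT. EIF3E was the highest in all KDM4E-SCNT and IVF libraries and EIF3M in all SCNT libraries. The SD of log2(FPKM + 1) over the 13 subunits was 1.63 and 1.64 in KDM4E-SCNT, 1.92, 2.06 and 2.03 in IVF and 1.46, 1.42 and 1.50 in SCNT, and the groups did not overlap in this measure.

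**Figure D3:**
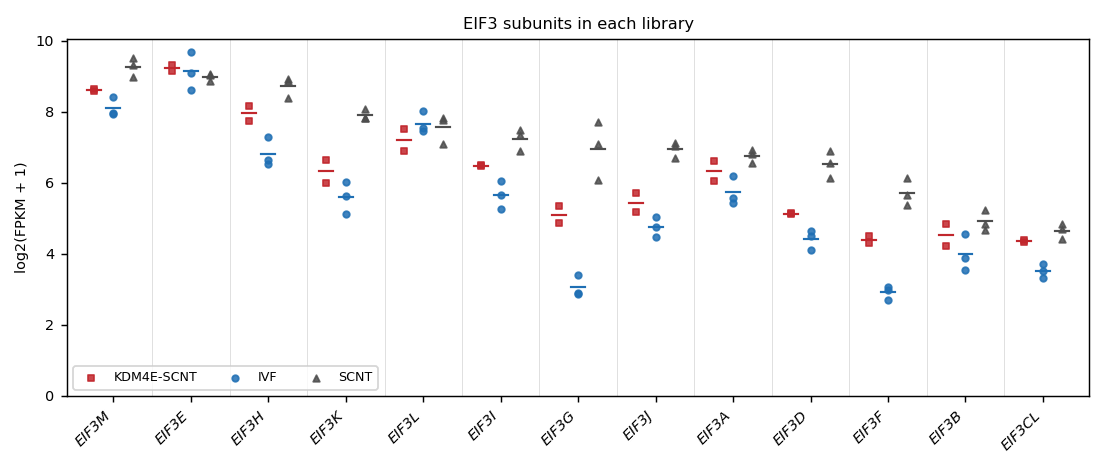
log2(FPKM + 1) of the 13 EIF3 subunit genes in every library, ordered by mean FPKM in SCNT, with KDM4E-SCNT as red squares, IVF as blue circles and SCNT as grey triangles, and a short line at each group mean. The SCNT triangles are highest in most columns, EIF3G and EIF3F show the widest gaps between IVF and SCNT, and in EIF3E and EIF3L the IVF and SCNT symbols overlap.

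Of the 3 subunits of EIF2, which carries the initiator tRNA, EIF2S1 and EIF2S2 were called lower in both KDM4E-SCNT and IVF than in SCNT, and EIF2S3 was not called. EIF2S1, the alpha subunit that the stress kinases phosphorylate, stood at 149.6 and 95.2 FPKM in KDM4E-SCNT, 48.8, 101 and 66.1 FPKM in IVF and 393, 277 and 325 FPKM in SCNT. EIF2S2, the beta subunit, stood at 227 and 147 FPKM in KDM4E-SCNT, 71.8, 122 and 84.7 FPKM in IVF and 422, 548 and 647 FPKM in SCNT. Both were highest in all SCNT libraries. EIF2S1 was lower in KDM4E-SCNT (-1.45 ± 0.35, adjusted p = 0.00892) and in IVF (-2.24 ± 0.32, adjusted p = 7.91e-05). EIF2S2 was lower in KDM4E-SCNT (-1.53 ± 0.33, adjusted p = 0.00513) and in IVF (-2.54 ± 0.30, adjusted p = 1.97e-05). EIF2S3, the gamma subunit that binds GTP and the tRNA, was the 1 factor of the 61 on the X chromosome, and stood at 109.6 and 120.1 FPKM in KDM4E-SCNT, 75.2, 125 and 112 FPKM in IVF and 140.5, 113 and 124 FPKM in SCNT. The groups overlapped, and IVF differed from SCNT by -0.30 ± 0.27, which was not called. Among these subunits, the highest transcript was 2.07 and 1.54 times the lowest in KDM4E-SCNT, 1.54, 1.24 and 1.69 times in IVF and 3.00, 4.85 and 5.22 times in SCNT. The SCNT libraries had the widest spread between subunits, with no overlap with the other groups. Both calls in KDM4E-SCNT ended without replicate 2 of that group (adjusted p of 0.0628 to 0.0983).

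EIF2A and EIF2D are separate proteins that can bring tRNA to the ribosome without EIF2. EIF2A was lower in IVF than in SCNT (-1.53 ± 0.31, adjusted p = 0.00115), and EIF2D was not called in any comparison. Within EIF2B, the GTP exchange factor, EIF2B5, the catalytic epsilon subunit, stood at 9.34 and 3.21 FPKM in KDM4E-SCNT, 0.06, 1.17 and 1.14 FPKM in IVF and 17.2, 24.7 and 18.9 FPKM in SCNT. The catalytic subunit was lower in KDM4E-SCNT (-1.67 ± 0.47, adjusted p = 0.0172) and in IVF (-3.63 ± 0.42, adjusted p = 1.88e-05), against SCNT, and higher in KDM4E-SCNT than in IVF (1.96 ± 0.47, adjusted p = 0.0245). Without KDM4E-SCNT replicate 2 the difference of KDM4E-SCNT from SCNT was -1.03 (adjusted p = 0.209), and with a pseudocount of 0.1 that call also ended (adjusted p = 0.112). EIF2B2, the beta subunit, stood at 21.6 and 11.2 FPKM in KDM4E-SCNT, 7.67, 3.31 and 7.17 FPKM in IVF and 70.8, 50.2 and 63.3 FPKM in SCNT. EIF2B2 was lower in KDM4E-SCNT (-1.90 ± 0.41, adjusted p = 0.00491) and in IVF (-3.20 ± 0.36, adjusted p = 1.64e-05). The EIF2B2 call in KDM4E-SCNT against SCNT also ended without KDM4E-SCNT replicate 2 (-1.45, adjusted p = 0.0716). The SCNT libraries were the highest for both genes, with no overlap with either group.

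EIF2B4, the delta subunit, was the exception, at 7.51 and 23.8 FPKM in KDM4E-SCNT, 34.2, 19.8 and 29.4 FPKM in IVF and 15.3, 11.1 and 11.4 FPKM in SCNT. It was higher in IVF relative to SCNT (1.06 ± 0.40, adjusted p = 0.0353), a call that ended under 3 of the scalings (adjusted p of 0.0627 to 0.161) and without IVF replicate 1 or 3 or SCNT replicate 2 or 3. EIF2B1, the alpha subunit, stood at 19.1 and 23.1 FPKM in KDM4E-SCNT, 28.6, 24.4 and 22.7 FPKM in IVF and 51.8, 27.2 and 55.2 FPKM in SCNT, and neither it nor EIF2B3 was called in any comparison.

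The EIF2 kinases differed in direction. EIF2AK1, the kinase regulated by heme, stood at 119 and 59.9 FPKM in KDM4E-SCNT, 38.7, 27.5 and 55.3 FPKM in IVF and 252, 289 and 233 FPKM in SCNT. Every SCNT library exceeded every other library, and it was lower in KDM4E-SCNT (-1.60 ± 0.37, adjusted p = 0.00706) and in IVF (-2.69 ± 0.33, adjusted p = 2.89e-05). EIF2AK4, the kinase that senses amino acid shortage, stood at 8.31 and 6.45 FPKM in KDM4E-SCNT, 6.45, 15 and 9.29 FPKM in IVF and 2.46, 5.52 and 1.98 FPKM in SCNT, and was higher in IVF relative to SCNT (1.40 ± 0.40, adjusted p = 0.00951). EIF2AK3, the kinase of the endoplasmic reticulum, was not called, at 5.71 and 4.7 FPKM in KDM4E-SCNT, 4.28, 6.25 and 4.01 FPKM in IVF and 2.57, 2.31 and 5.28 FPKM in SCNT. EIF2AK1 was not called in KDM4E-SCNT without replicate 2 of that group (adjusted p = 0.096).

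The start-site factor EIF1 and its relative EIF1B were abundant in every library. EIF1 stood at 786 and 875 FPKM in KDM4E-SCNT, 911, 699.7 and 994 FPKM in IVF and 736, 463 and 504 FPKM in SCNT, and was not called (adjusted p = 0.0508 for IVF against SCNT). EIF1B stood at 651 and 1142 FPKM in KDM4E-SCNT, 479.8, 535 and 469 FPKM in IVF and 314, 336 and 388 FPKM in SCNT, and no library of one group overlapped another group. It was higher in KDM4E-SCNT than in SCNT (1.32 ± 0.29, adjusted p = 0.00566), a call that ended without KDM4E-SCNT replicate 2 (adjusted p = 0.0655), and was not called in IVF against SCNT. EIF1B made up 45.3% and 56.6% of the summed FPKM of EIF1 and EIF1B in KDM4E-SCNT, 34.5%, 43.4% and 32.1% in IVF and 29.9%, 42.1% and 43.5% in SCNT. EIF1AD, which has a domain like that of EIF1A, stood at 143 and 73.3 FPKM in KDM4E-SCNT, 18.9, 12.6 and 26.1 FPKM in IVF and 160.1, 77.5 and 159 FPKM in SCNT. Here the IVF libraries stood alone as the lowest, and KDM4E-SCNT and SCNT overlapped. It was higher in KDM4E-SCNT than in IVF (2.41 ± 0.43, adjusted p = 0.00436) and lower in IVF than in SCNT (-2.70 ± 0.38, adjusted p = 8.25e-05), and KDM4E-SCNT differed from SCNT by -0.29 ± 0.43, which was not called.

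EIF6, which binds the large ribosomal subunit and keeps it from joining the small one too early, lies on chromosome 13, 65206238 to 65212123 (ENSBTAG00000011263.4) and had the largest difference between IVF and SCNT of the 59. It stood at 399 and 143 FPKM in KDM4E-SCNT, 27.9, 11.9 and 59.1 FPKM in IVF and 692, 759.8 and 937 FPKM in SCNT. The groups did not overlap. In IVF it was lower than in SCNT (-4.81 ± 0.49, adjusted p = 8.22e-06), a 28.1-fold difference of log-scale means. In KDM4E-SCNT it was higher than in IVF (3.09 ± 0.55, adjusted p = 0.00445) and lower than in SCNT (-1.72 ± 0.55, adjusted p = 0.031). The call against SCNT in KDM4E-SCNT ended without KDM4E-SCNT replicate 2 (-0.98, adjusted p = 0.319), without any 1 of the SCNT libraries (adjusted p of 0.0578 to 0.0916) and under quantile normalization (adjusted p = 0.103).

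EIF5, which makes EIF2 hydrolyse its GTP, stood at 382 and 189 FPKM in KDM4E-SCNT, 220, 184 and 254 FPKM in IVF and 741, 617 and 678 FPKM in SCNT. Every SCNT library lay above every other library. EIF5 was lower in KDM4E-SCNT (-1.33 ± 0.32, adjusted p = 0.0087) and in IVF (-1.64 ± 0.29, adjusted p = 0.000396). Without KDM4E-SCNT replicate 2, the KDM4E-SCNT difference was -0.82 (adjusted p = 0.103). EIF5A, a hypusine-bearing factor that helps ribosomes through difficult peptide bonds, stood at 179 and 97.1 FPKM in KDM4E-SCNT, 99.2, 36.5 and 188 FPKM in IVF and 1302, 524 and 547 FPKM in SCNT. Every SCNT library was well above the highest of the others. EIF5A was lower in KDM4E-SCNT (-2.44 ± 0.59, adjusted p = 0.00933) and in IVF (-3.02 ± 0.53, adjusted p = 0.000451), the KDM4E-SCNT call ending without replicate 2 of that group (adjusted p = 0.0994). EIF5A2, its less abundant paralogue, stood at 29.1 and 10.2 FPKM in KDM4E-SCNT, 5.51, 4.09 and 15.2 FPKM in IVF and 17, 23.9 and 22.4 FPKM in SCNT, and was lower in IVF (-1.43 ± 0.47, adjusted p = 0.0187), a call lost without IVF replicate 1 or 2 or SCNT replicate 2 or 3. Its share of the summed FPKM of EIF5A and EIF5A2 was 14.0% and 9.54% in KDM4E-SCNT, 5.26%, 10.1% and 7.50% in IVF and 1.29%, 4.36% and 3.93% in SCNT. EIF5B, which joins the ribosomal subunits, stood at 214 and 191 FPKM in KDM4E-SCNT, 97, 199.7 and 205 FPKM in IVF and 199, 203 and 203 FPKM in SCNT, and was not called.

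Among the elongation factors, EEF1A1 (ENSBTAG00000014534.5, chromosome 9, 13233554 to 13236949) stood at 282 and 368 FPKM in KDM4E-SCNT, 301, 292 and 195 FPKM in IVF and 757, 425 and 516 FPKM in SCNT. Every SCNT library was above every other library, and it was lower in IVF (-1.09 ± 0.29, adjusted p = 0.00609), a call that ended under quantile normalization (adjusted p = 0.19). KDM4E-SCNT differed from SCNT by -0.77 ± 0.32, which was not called. A further 10 features outside the symbol rule are described in the files as elongation factor 1-alpha or like it, so the level of EEF1A1 is uncertain where the authors' counting could split reads among such copies. The paralogue EEF1A2 was not analysed here. EEF1B2, the beta subunit of the exchange complex, stood at 119 and 67.5 FPKM in KDM4E-SCNT, 31, 47.5 and 33.4 FPKM in IVF and 258, 229 and 191 FPKM in SCNT. EEF1D, its delta subunit, stood at 33.3 and 16.3 FPKM in KDM4E-SCNT, 9.74, 5.98 and 5.9 FPKM in IVF and 76.6, 42 and 48.5 FPKM in SCNT. For both, IVF was lowest, KDM4E-SCNT in between and SCNT highest, with no overlap.

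EEF1B2 was lower in IVF (-2.58 ± 0.30, adjusted p = 1.94e-05) and in KDM4E-SCNT (-1.31 ± 0.34, adjusted p = 0.0112), against SCNT. EEF1D was also lower in IVF (-2.77 ± 0.36, adjusted p = 4.47e-05) and in KDM4E-SCNT (-1.17 ± 0.40, adjusted p = 0.0414). Both were higher in KDM4E-SCNT than in IVF (1.27 ± 0.34, adjusted p = 0.0404 for EEF1B2 and 1.60 ± 0.40, adjusted p = 0.0325 for EEF1D). Without KDM4E-SCNT replicate 2, the difference of EEF1D from SCNT was -0.68 (adjusted p = 0.347), its call also ending without SCNT replicate 1 (0.141) or 3 (0.0781) or IVF replicate 3 (0.0553), and EEF1B2 was not called (adjusted p = 0.129). EEF1G, the gamma subunit of the same complex, stood at 33.3 and 49.1 FPKM in KDM4E-SCNT, 63.7, 33.8 and 44.9 FPKM in IVF and 71.7, 31.3 and 37.4 FPKM in SCNT, with overlap of all groups and no call. EEF1E1, a part of the tRNA synthetase complex, was also not called, at 72 and 76.1 FPKM in KDM4E-SCNT, 71.3, 86.4 and 67.9 FPKM in IVF and 114, 101 and 105 FPKM in SCNT.

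EEF2 stood at 9.33 and 12 FPKM in KDM4E-SCNT, 6.9, 5.57 and 6.17 FPKM in IVF and 45.1, 28 and 23.9 FPKM in SCNT. The groups did not overlap in any comparison. It was lower in KDM4E-SCNT (-1.47 ± 0.36, adjusted p = 0.00929) and in IVF (-2.16 ± 0.32, adjusted p = 0.00012), and the KDM4E-SCNT call held when either library of that group was left out. EEF2K, the kinase that inhibits EEF2, stood at 1.77 and 4.74 FPKM in KDM4E-SCNT, 1.53, 4.29 and 3.9 FPKM in IVF and 0.67, 1.73 and 1.06 FPKM in SCNT, and was not called. The methyltransferase EEF1AKMT1, which modifies EEF1A, was lower in KDM4E-SCNT (-1.38 ± 0.39, adjusted p = 0.0175) and in IVF (-1.63 ± 0.35, adjusted p = 0.00158), the KDM4E-SCNT call ending without KDM4E-SCNT replicate 2 (adjusted p = 0.121) or SCNT replicate 1 (adjusted p = 0.0733). EEF2KMT, which modifies EEF2, stood at 3.18 and 11.8 FPKM in KDM4E-SCNT, 7.3, 6.08 and 4.56 FPKM in IVF and 0.94, 3.88 and 1.49 FPKM in SCNT, and was higher in IVF (1.26 ± 0.47, adjusted p = 0.0335), a call that ended under 3 of the scalings (adjusted p of 0.0587 to 0.0989) and without IVF replicate 1 or 2 or SCNT replicate 1 or 3.

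**Figure D4:**
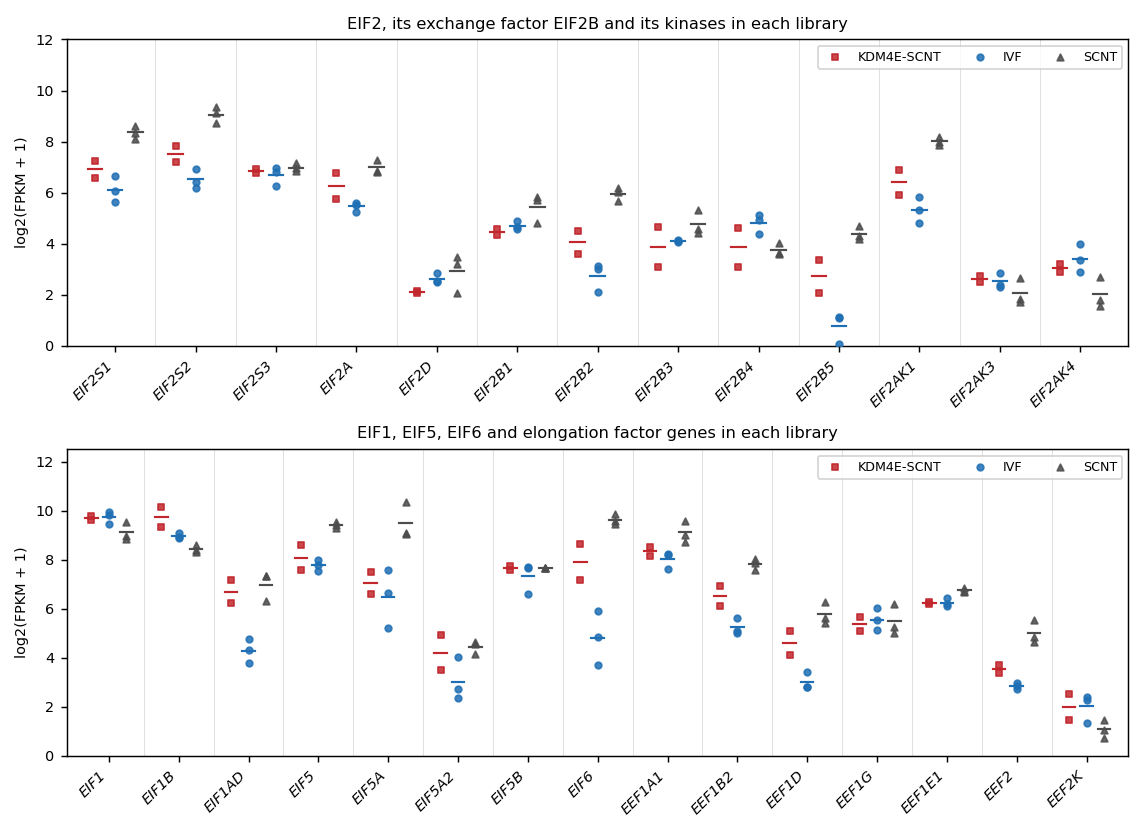
log2(FPKM + 1) of the EIF2, EIF2B and EIF2AK genes (upper panel) and of the EIF1, EIF5, EIF6 and elongation factor genes (lower panel) in every library, with KDM4E-SCNT as red squares, IVF as blue circles and SCNT as grey triangles, and a short line at each group mean. EIF2S1 and EIF2S2 are highest in SCNT while EIF2S3 overlaps between groups, EIF6 spans the widest range with IVF lowest, and EIF1AD has IVF alone at the low end.

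The 7 factors called higher in KDM4E-SCNT than in IVF were EIF1AD, EIF2B5, EIF3F, EIF3G, EIF6, EEF1B2 and EEF1D. Each was also called lower in IVF than in SCNT, and both comparisons use the same IVF libraries. With no filter on low values, the calls of EIF1AD, EIF3F, EIF3G and EIF6 were kept. In a fit of only the groups compared, those of EIF1AD, EIF3G and EIF6 were kept. The EEF1B2 call also ended under each of the 4 other scalings (limma adjusted p of 0.0571 to 0.083) and with a replicate block (0.0853). That of EEF1D ended under upper-quartile scaling (0.0538). Without KDM4E-SCNT replicate 1, 0 of the 7 calls were kept, with adjusted p of 0.0943 to 0.419. The calls of EIF2B5, EIF3F, EEF1B2 and EEF1D also ended without at least 1 IVF or SCNT library (adjusted p of 0.057 to 0.121). KDM4E-SCNT replicate 2 was lower than replicate 1 for 29 of the 59 factors, against 40.4% of all features, by over 2-fold for 6, and was over 2-fold higher for 4.

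By level, among the 22 factors with a mean of at least 100 FPKM over all libraries, 1 was higher and 13 lower in IVF than in SCNT. Among the 25 with a mean of 10 to 100 FPKM, 4 were higher and 17 lower. Among the 12 tested with a mean under 10 FPKM, 5 were higher and 3 lower, with a median difference of 0.70. These means include the libraries compared, so a gene high in SCNT is moved towards the upper class, and level and direction are not independent here. Shares of all features at these levels were not computed. The factors lay on 26 chromosomes. EIF5A and EIF4A1, 262157 bp apart on chromosome 19, had calls of opposite direction in IVF against SCNT, and EIF4G1 and EIF2B5, 131699 bp apart on chromosome 1, were both called lower. EIF2AK1 and EIF4E3 each overlap another annotated feature (ANKRD61 and PROK2), and the labels do not say that strand was used in counting, so part of their reads may belong to that feature.

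Other genes of translation, taken from a list of 41 that act on the poly(A) tail, ribosome release or signalling to initiation, were followed for context. The files held 38 of these symbols, DOHH was too low to test, and with 2 features named DENR 38 were tested. In IVF against SCNT 6 were called higher and 20 lower, with a median difference of -0.76, where 34.9% of all features were called higher and 23.6% lower. In KDM4E-SCNT against SCNT 5 were higher and 11 lower, with a median of -0.45, where the shares of all features were 21.6% and 11%. In KDM4E-SCNT against IVF 4 were called by limma, each of them higher, where 5.9% of all features were called higher. The calls of DENR, MCTS1 and PAIP2B, 3 of these 4, ended without KDM4E-SCNT replicate 1 (adjusted p of 0.145 to 0.282). Those of MCTS1 and PAIP2B also ended without KDM4E-SCNT replicate 2 (0.0684 and 0.07), IVF replicate 1 (0.0971 and 0.0819) or SCNT replicate 3 (0.0663 and 0.0554), and that of MCTS1 without IVF replicate 3 (0.13) or SCNT replicate 1 (0.0607) or 2 (0.0534).

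PAIP1, which binds poly(A)-binding protein and EIF4A and stimulates translation, stood at 4192 and 6487 FPKM in KDM4E-SCNT, 6621, 9967 and 7011 FPKM in IVF and 642, 1065 and 872 FPKM in SCNT. Every SCNT library was lower than every other library, and its level was far above that of any EIF or EEF gene in the KDM4E-SCNT and IVF libraries. It was higher in KDM4E-SCNT (2.63 ± 0.30, adjusted p = 0.000482) and in IVF (3.20 ± 0.27, adjusted p = 2.32e-06). Its repressive relatives PAIP2 and PAIP2B were lower than in SCNT in KDM4E-SCNT (-1.08 ± 0.31, adjusted p = 0.0176 for PAIP2 and -1.91 ± 0.34, adjusted p = 0.00211 for PAIP2B) and in IVF (-0.79 ± 0.27, adjusted p = 0.0251 for PAIP2 and -3.30 ± 0.31, adjusted p = 4.17e-06 for PAIP2B). The PAIP2 calls were not followed under other settings or without any library.

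Among the poly(A)-binding proteins, the embryonic forms and the general form were called in opposite directions. PABPN1L, a germline relative of the nuclear protein, stood at 39.5 and 30.4 FPKM in KDM4E-SCNT, 77.5, 21.4 and 86.5 FPKM in IVF and 5.28, 5.89 and 3.79 FPKM in SCNT. PABPC1, the general cytoplasmic form, stood at 152 and 116 FPKM in KDM4E-SCNT, 50, 98.4 and 37.5 FPKM in IVF and 563, 357 and 362 FPKM in SCNT. PABPN1L was higher in KDM4E-SCNT (2.59 ± 0.51, adjusted p = 0.0032) and in IVF (3.18 ± 0.45, adjusted p = 8.66e-05), and PABPC1 was lower in KDM4E-SCNT (-1.65 ± 0.39, adjusted p = 0.00821) and in IVF (-2.85 ± 0.35, adjusted p = 3e-05). PABPC1L, the oocyte cytoplasmic form, stood at 1.5 and 7.63 FPKM in KDM4E-SCNT, 5.48, 3.45 and 5.46 FPKM in IVF and 0.86, 0.4 and 0.75 FPKM in SCNT. With every SCNT library under 1 FPKM, it passed the filter only through the other groups. PABPC1L was higher in IVF (1.78 ± 0.44, adjusted p = 0.00407) and in KDM4E-SCNT (1.49 ± 0.50, adjusted p = 0.0362). The KDM4E-SCNT value for PABPC1L was 2.38 (adjusted p = 0.00531) without KDM4E-SCNT replicate 1 and 0.59 (adjusted p = 0.428) without replicate 2. Its call also ended without IVF replicate 3 or any 1 SCNT library (adjusted p of 0.0505 to 0.0856). The same call ended under quantile normalization (0.111), median-ratio scaling (0.0644) and upper-quartile scaling (0.0544), and with no filter on low values (0.0703).

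ETF1, the factor that releases the finished protein at stop codons, stood at 181 and 78.2 FPKM in KDM4E-SCNT, 26.4, 20.7 and 27.2 FPKM in IVF and 255, 289 and 317 FPKM in SCNT. It was lower in IVF (-3.49 ± 0.32, adjusted p = 3.73e-06) and higher in KDM4E-SCNT than in IVF (2.23 ± 0.36, adjusted p = 0.00239). ETF1 was lower in KDM4E-SCNT than in SCNT (-1.26 ± 0.36, adjusted p = 0.0182), or -0.66 (adjusted p = 0.222) without KDM4E-SCNT replicate 2, and that call also ended without SCNT replicate 3 (adjusted p = 0.0633). DENR and MCTS1, partners that recycle the small subunit and aid re-initiation, were lower in IVF (-2.76 ± 0.32, adjusted p = 1.81e-05 for MCTS1 and -3.71 ± 0.36, adjusted p = 5.61e-06 for the more abundant of the features named DENR). PDCD4, which inhibits EIF4A, was lower in KDM4E-SCNT (-2.00 ± 0.43, adjusted p = 0.00534) and in IVF (-2.75 ± 0.39, adjusted p = 7.91e-05). MKNK1, the kinase that phosphorylates EIF4E, was higher in KDM4E-SCNT (1.38 ± 0.33, adjusted p = 0.00784) and in IVF (1.89 ± 0.29, adjusted p = 0.000155). Without KDM4E-SCNT replicate 2, the KDM4E-SCNT calls of PABPC1, PABPC1L, ETF1, DENR, MCTS1, PDCD4 and MKNK1 against SCNT ended (adjusted p of 0.0778 to 0.428). MTOR stood at 6.77 and 7.91 FPKM in KDM4E-SCNT, 5.25, 6.84 and 5.5 FPKM in IVF and 3.3, 5.13 and 5.6 FPKM in SCNT, and was not called.

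**Figure D5:**
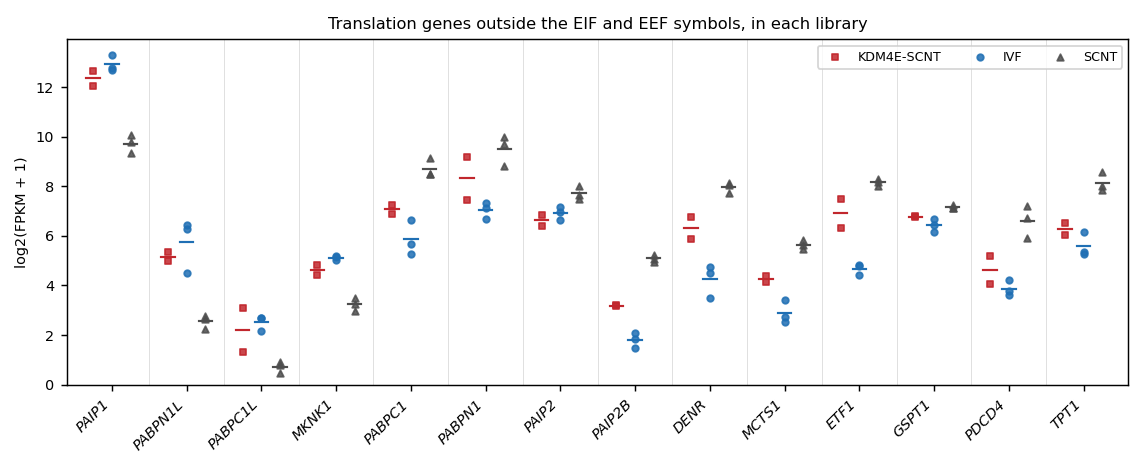
log2(FPKM + 1) of 14 translation genes outside the EIF and EEF symbols in every library, with KDM4E-SCNT as red squares, IVF as blue circles and SCNT as grey triangles, and a short line at each group mean. PAIP1, PABPN1L, PABPC1L and MKNK1 have the SCNT libraries lowest, and PABPC1, PAIP2B, DENR, MCTS1, ETF1, PDCD4 and TPT1 have them highest.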

How the data were processed

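The 8 libraries, 2 of KDM4E-SCNT, 3 of IVF and 3 of SCNT embryos, were grouped by their labels. Per the labels' protocols, cDNA was tailed with poly(A), amplified and fragmented before library preparation. Build UMD3.1 is named in the submitters' processing notes, as are the programs RSEM 1.2.12, Bowtie2 2.2.5, StringTie 1.0.4, HISAT 0.1.6 and bcl2fastq 2.16, with no role given for any of them. The deposited tables hold FPKM per feature, per the file headers, with coordinates and descriptions. FPKM is not a count and gives no depth, so precision rests on the spread between libraries.

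Members were the features whose symbol begins with EIF or EEF, except EIF1AX. Features with at least 1 FPKM in at least 2 libraries were kept. limma 3.58.1 in R 4.3.3 was fitted to log2(FPKM + 1) of 14839 features over all 8 libraries, with an intensity trend, robust moderation and 1 mean per group, and p-values were adjusted by Benjamini-Hochberg over all of them. The script was tested on simulated data. Members, families, the pathway list and the lists of oocyte, fibroblast, cumulus and blood markers were chosen with earlier results of these data known. Values in every library are given for germline forms and their relatives, for paralogues, for the most abundant gene of each family, and for the 2 genes per family and comparison with the smallest p in each direction. Alternatives were a pseudocount of 0.1, 2 other filters, 4 other scalings, a fit of only the groups compared, replicate number as a block, moderation without the robust option and leaving out each library. EIF1AX was not analysed here. Symbols came from the files.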

Additional observations from a re-analysis of the deposited data

How the results depend on the processing

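Over 72 genes, 3 comparisons and 18 alternative settings, 3626 of 3882 values kept their side of the threshold, 179 lost a call, 77 gained one and 0 changed sign among called values. The direction of values that stayed uncalled was not compared. The most fragile comparison was KDM4E-SCNT against IVF, with 7 factors called higher. That count was 4 with no filter on low values and 3 in a fit of only the groups compared, and it ranged from 0 to 10 on leaving out each library in turn, with 0 without KDM4E-SCNT replicate 1. The count called lower ranged from 0 to 1. All features called in that comparison numbered 967, or 541 in the fit of only the groups compared, with a range of 291 to 1287 on leaving out each library. In KDM4E-SCNT against SCNT, leaving out each library gave 1 to 7 factors higher, 3 to 21 lower and 1575 to 5251 features called in all, the lowest counts without KDM4E-SCNT replicate 2. In IVF against SCNT the ranges were 7 to 12 higher, 31 to 33 lower and 7264 to 8822 features. The cause of these changes was not tested. A group of 2 libraries limits every KDM4E-SCNT result, and with no read counts the error from depth cannot be given.

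The groups share replicate numbers, but the numbers were not taken as pairing the libraries. Deviations from the group means correlated at 0.0602, 0.0934 and 0.0277 between same-numbered IVF and SCNT libraries, at 0.0324 and 0.0678 between KDM4E-SCNT and IVF, and at 0.00649 and 0.123 between KDM4E-SCNT and SCNT, across features. IVF replicate 3 correlated more with SCNT replicate 1 (0.0702) than with its own number. With replicate number as a block, 5 factors were higher and 19 lower in KDM4E-SCNT against SCNT, 11 higher and 33 lower in IVF against SCNT, and 8 higher and 0 lower in KDM4E-SCNT against IVF. All features called were 4252, 8656 and 957 in the same order.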

Other observations

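Some features outside the symbol rule are described in the files as translation factors. An unnamed gene (ENSBTAG00000013398.3, chromosome 29, 1934150 to 1936897, build UMD3.1), described as similar to an oocyte form of elongation factor 1-alpha in sheep, stood at 16.9 and 9.33 FPKM in KDM4E-SCNT, 1.51, 2.11 and 2.04 FPKM in IVF and 17.7, 27.2 and 38.3 FPKM in SCNT. The IVF libraries were the lowest, with no overlap with either group. It was higher in KDM4E-SCNT than in IVF (2.24 ± 0.41, adjusted p = 0.00481, limma) and lower in IVF than in SCNT (-3.26 ± 0.36, adjusted p = 1.47e-05), and KDM4E-SCNT against SCNT was not called (-1.01 ± 0.41, adjusted p = 0.0721). Its description names an oocyte form, but its direction in IVF against SCNT was the opposite of that of EIF4E1B. An unannotated locus on chromosome 8, 95190405 to 95191207 (BGI_novel_G004586), described as similar to elongation factor 1-alpha 1, stood at 18.3 and 2.83 FPKM in KDM4E-SCNT, 2.54, 9.86 and 0 FPKM in IVF and 103, 348 and 57.7 FPKM in SCNT. It was lower than in SCNT in KDM4E-SCNT (-3.91 ± 0.99, adjusted p = 0.0122) and in IVF (-5.25 ± 0.88, adjusted p = 0.000414), and the SCNT libraries themselves spread widely. This locus lies within a longer unannotated one, 95002087 to 95321178, also described as like elongation factor 1-alpha 1. The longer locus was not called against SCNT in KDM4E-SCNT (-0.41 ± 0.40) or in IVF (0.15 ± 0.35). Reads could be split between these loci, so the level of each is uncertain.

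The initiation factors of mitochondria are named MTIF and were also outside the rule. MTIF3, which acts with the small mitochondrial ribosomal subunit, stood at 9.14 and 12.1 FPKM in KDM4E-SCNT, 17.7, 13.3 and 19.2 FPKM in IVF and 3.9, 4.57 and 5.71 FPKM in SCNT. It was higher than in SCNT in KDM4E-SCNT (1.02 ± 0.35, adjusted p = 0.0411) and in IVF (1.63 ± 0.31, adjusted p = 0.000771), and every SCNT library was below every other library. MTIF2, which brings the initiator tRNA to that subunit, stood at 10.1 and 14.2 FPKM in KDM4E-SCNT, 7.43, 13.7 and 13.5 FPKM in IVF and 4.56, 7.26 and 5.87 FPKM in SCNT, and was not called in KDM4E-SCNT (0.94 ± 0.39, adjusted p = 0.0787) or in IVF (0.84 ± 0.34, adjusted p = 0.0517) against SCNT. These genes were named after their values were seen, and the calls were not followed under other settings.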
